A study of Mus musculus with 2 samples.

Results

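The small RNAs described here are those that fell on the second open reading frame (ORF2) and the 3′ end of an L1 retrotransposon copy in fetal mouse testes. They were 31874 distinct sequences of 16 to 36 nt out of 1132769 distinct sequences in the deposited libraries, and 26122 of them had the 24 to 33 nt of piRNAs. A sequence was taken when it was neither a miRNA nor a structural RNA fragment, when its best placement on either strand of the copy had at most 2 mismatches, and when its 5′ end lay between positions 1851 and 6046 of the copy. No member had a tied best placement, 5337 members were read in both libraries, and 22717 were read once in all.

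The study compared small RNAs of wild-type (WT) testes with those of testes lacking HSP90α, a chaperone protein, here Hsp90-alpha KO or KO. Each genotype was represented by 1 library made from 20 pooled whole testes of C57BL/6 fetuses at embryonic day 16.5 (E16.5), so somatic and germ cells were sequenced together and neither genotype had a replicate. The libraries held 6409305 WT reads and 5589326 KO reads, of which 2523084 and 2561491 were miRNA reads. Levels below are reads per 1000000 miRNA reads (RPM), and KO/WT ratios use the same normalization. Every interval (95%) and test compares these 2 libraries, not the genotypes, and covers the counting of reads only. The reads were amplified without molecular identifiers and are not independent molecules. The deletion of the chaperone gene was not checked here, because small RNA reads do not report on it.

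L1 is a retrotransposon that encodes an RNA-binding protein from its first open reading frame (ORF1) and an endonuclease and reverse transcriptase from ORF2. In fetal prospermatogonia, piRNAs guide the PIWI proteins MILI and MIWI2 against such elements. In the ping-pong cycle, a piRNA that begins with U guides cleavage of a transcript of the opposite strand, and the new piRNA overlaps its guide by 10 nt at the 5′ ends and carries A at position 10. Primary piRNAs are cut from long precursors and also tend to begin with U.

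The copy was the reverse complement of the 6046-nt transcript of Gm47578, an antisense gene on the plus strand of chromosome 10 (GRCm38, GENCODE release M21), so that L1 sense RNA ran along the minus strand. ORF1 lay at 599 to 1672 with 357 codons before the stop, and ORF2 at 1713 to 5558 with 1281 codons. The member region began 138 nt inside ORF2. It lies at chr10:99719143-99723338, wholly within exon 1 of the transcript, and comprises 3708 nt of ORF2 and 488 nt after its stop codon. The remaining upstream part, positions 1 to 1850, served as comparison, and its first 439 nt come from exon 2 of the transcript at chr10:99890720-99891158. L1 is repeated across the genome, so a placement names a position in the element and not the locus that made the RNA.

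The following sequences carry the main peaks. They are the most abundant RNAs at some of the strongest 5′ ends, written 5′ to 3′ as the DNA reads with the first 10 nt in capitals, that is, the stretch in which a ping-pong partner would overlap. The number in each name is the position of the 5′ end on the copy.
Sense 4742: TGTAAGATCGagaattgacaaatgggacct
Sense 4744: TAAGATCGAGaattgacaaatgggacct
Sense 4433: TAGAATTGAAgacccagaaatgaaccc
Sense 4025: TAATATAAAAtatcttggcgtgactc
Antisense 4209: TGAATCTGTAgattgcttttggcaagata
Antisense 4210: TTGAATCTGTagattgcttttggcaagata
Antisense 4437: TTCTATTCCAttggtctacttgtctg

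Sense 4742 and 4744 start 2 nt apart and end at the same base, position 4771, at chr10:99720418-99720447 and chr10:99720418-99720445. Antisense 4209 and 4210 likewise share their 3′ end at position 4181, at chr10:99720980-99721008 and chr10:99720979-99721008. These neighbours therefore cover the same stretch of the element. Sense 4433 lies at chr10:99720730-99720756, sense 4025 at chr10:99721139-99721164 and antisense 4437 at chr10:99720752-99720777. All of these match the copy without a mismatch. By exact match, the RNA of sense 4742 occurs in transcripts of 25 genes and its reverse complement in those of 6, together 31 genes. The RNA of antisense 4209 occurs in transcripts of 9 genes and its reverse complement in those of 41, together 50 genes. These counts may include the gene from which the copy was taken.

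Sequences at a 10-nt overlap, as ping-pong partners would have, are shown next. By that choice their capitals are the reverse complement of each other, and their origin was not tested. They belong to the 5 pairs of 5′ ends at a 10-nt overlap with the highest product of reads.
Sense 4814: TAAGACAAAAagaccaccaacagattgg
Antisense 4823: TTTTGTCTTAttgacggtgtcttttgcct
Sense 2988: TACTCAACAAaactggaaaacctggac
Antisense 2997: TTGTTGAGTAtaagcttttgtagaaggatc
Antisense 4442, partner of sense 4433: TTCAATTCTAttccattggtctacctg

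Both members of these 3 pairs, and of the pair of sense 4639 and antisense 4648, begin with U and carry A at position 10. The remaining pair differs, since sense 5043 begins with A and has A at position 10, while antisense 5052 begins with U and has U at position 10. Because the first 10 nt of partners are complementary, the base at position 10 of each RNA is fixed by the first base of its partner. In these pairs A at position 10 is therefore no separate evidence of the ping-pong cycle. Antisense 4442 differs from the copy by T25C and antisense 2997 by G13A and C14G, where the base of the copy, read on the strand of the RNA, comes first and positions count from 1 at the 5′ end of the RNA. The first pair lies at chr10:99720348-99720375 and chr10:99720366-99720394, the second at chr10:99722175-99722201 and chr10:99722192-99722221, and antisense 4442 at chr10:99720747-99720773.

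RNAs of 24 to 33 nt from ORF2 and the 3′ end were lower in the KO library. They numbered 61752 reads in WT, or 24475 RPM, and 23847 reads in KO, or 9310 RPM. The KO/WT ratio was 0.380 (0.375 to 0.386, Clopper-Pearson). In whole testes, fewer germ cells and less piRNA per germ cell cannot be told apart from these values. Structural RNA fragments of the same lengths had a ratio of 0.874 (0.864 to 0.883). The upstream part of L1 had 0.382 (0.375 to 0.389), and the quotient of the member ratio over the upstream ratio was 0.996 (0.973 to 1.02, Fisher's exact test p = 0.707, adjusted p = 0.749 over 18 such quotients). Without the stretch from exon 2 in the upstream part, the quotient was 1.09 (1.06 to 1.12), so the comparison with the upstream part depends on that stretch.

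The strands differed. Sense RNAs numbered 31513 reads in WT and 14603 in KO, and antisense RNAs 30239 and 9244. The sense ratio was 0.456 (0.448 to 0.466) and the antisense ratio 0.301 (0.294 to 0.308). Antisense RNAs were thus lower by more than sense RNAs, with a quotient of 0.660 (0.640 to 0.680, Fisher's exact test p = 5.96e-160, adjusted p = 1.07e-158). Their share among the members went from 49.0% in WT (48.6 to 49.4, Wilson) to 38.8% in KO (38.1 to 39.4). The upstream part began from a lower antisense share, 34.6% in WT and 27.4% in KO, and had a strand quotient of 0.714 (0.686 to 0.743). Without the 10 strongest 5′ ends of each strand, the strand quotient of the members was 0.735 (0.709 to 0.762). Counting each distinct sequence once gave 0.805 (0.767 to 0.844), so the strand difference was smaller in the number of sequences than in reads.

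The strand difference ran along nearly the whole region. In 16 windows of 250 nt the sense ratio ranged from 0.339 to 0.546 with a median of 0.437, and the antisense ratio from 0.246 to 0.4003 with a median of 0.323. The antisense ratio was the lower one in 15 windows. The exception was 5601 to 5850, after the ORF2 stop codon, where the sense ratio was 0.4002 and the antisense ratio 0.4003 and only 219 antisense reads were present in WT. Reads were uneven. The window 4601 to 4850 held 7461 sense reads in WT, 23.7% of its strand, and the window 4101 to 4350 held 6960 antisense reads, 23.02% of its strand. The poorest sense window, 3351 to 3600, had 381 reads.

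Reads from the 3′ end beyond ORF2 were few. They came to 1614 RPM in WT and 547 in KO, against 22861 and 8762 for the ORF2 stretch. The 3′ end ratio was 0.339 (0.319 to 0.360) and the ORF2 ratio 0.383 (0.377 to 0.389), with a quotient of 0.885 (0.831 to 0.942, Fisher's exact test p = 0.000118, adjusted p = 0.000237). On the sense strand this quotient was 0.826 (0.762 to 0.894, adjusted p = 4.39e-06 by Fisher's exact test). On the antisense strand it was 0.936 (0.845 to 1.04, adjusted p = 0.236 by Fisher's exact test), and the difference between the strands in this quotient was not tested. The last bases of the copy are a technical edge, since an RNA that runs past position 6046 could not be placed.

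Length profiles peaked at 29 nt on both strands in both libraries. RNAs of 29 nt were 22.8% of sense reads in WT and 22.2% in KO, and 29.5% and 27.8% of antisense reads. The class of 28 to 32 nt, the lengths found with MIWI2, had a ratio of 0.374 (0.367 to 0.381), and the class of 24 to 27 nt, the lengths found with MILI, had 0.396 (0.385 to 0.407). The quotient of 0.944 (0.913 to 0.975, adjusted p = 0.00101 by Fisher's exact test) is smaller than the length difference of structural RNA fragments, whose quotient was 0.832 (0.814 to 0.850). Divided by it, the L1 quotient was 1.13 (1.09 to 1.18), so the direction of the length difference depends on the reference. On the sense strand alone the quotient was 0.958, with an interval of 0.919 to 1.0002, and on the antisense strand 0.964 (0.915 to 1.02).

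Most reads came from few 5′ ends. Of 4196 positions, 2004 sense and 1989 antisense positions had a 24 to 33 nt read in WT, and 1449 and 1328 in KO. The named 10 sense positions held 28.2% of the sense reads in WT and 32.8% in KO, and the named 10 antisense positions held 30.4% and 27.4%. In WT, 48 sense positions and 51 antisense positions were enough for 50% of the reads of their strand. All 20 named positions lay inside ORF2.

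The strongest 5′ end was sense 4742, with 1215 RPM in WT and 668 in KO. Its ratio was 0.550. Sense 4744 had 460 and 231 RPM, a ratio of 0.501. All 5′ ends from 4742 to 4744 together had a ratio of 0.532 (0.506 to 0.559) and 14.2% of the sense reads in WT. RNAs of 30 nt were the most frequent length at 4742. Of the 304 distinct sequences there, the printed one made up 23.1% of the reads, and the others differed in length or by mismatches.

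Antisense 4209 had 904 RPM in WT and 213 in KO, a ratio of 0.236. Antisense 4210 had 759 and 198 RPM, a ratio of 0.260. The share of antisense reads was 7.55% in WT at 4209 and 6.33% at 4210. In contrast to sense 4742, single sequences dominated here. The printed RNA was 63.2% of the reads at 4209 and 74.9% at 4210.

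These leading blocks had almost no partner at a 10-nt overlap. The partner position of sense 4742 had 0 antisense reads in WT and 1 in KO, and that of antisense 4209 had 5 sense reads in WT and 0 in KO. Their bases at position 10 also differed, G for sense 4742 and A for antisense 4209. The next sense position, 4433, had 416 RPM in WT and 304 in KO. Its ratio of 0.731 (0.666 to 0.803) was the highest of the 20 named positions and lay above that of the sense strand as a whole.

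Every named position was lower in KO, with intervals entirely below 1. The 10 sense ratios ranged from 0.401 at 4438 to 0.731 at 4433, with a median of 0.496. The 10 antisense ratios ranged from 0.218 at 2908 to 0.391 at 5053, with a median of 0.292. The ratios of the strands thus did not overlap among the named positions, although the intervals of sense 4438 (0.352 to 0.457) and antisense 5053 (0.325 to 0.469) did. Among all 5′ ends with at least 100 reads the ratios did overlap. They ran from 0.231 to 0.894 at 78 sense positions and from 0.165 to 0.622 at 61 antisense positions. The named positions were chosen on summed reads and not on the ratio. U was the first base of the leading sequence at 9 of the 10 sense and 9 of the 10 antisense positions. The sense exception was 5174 with C. Among the other named positions, sense 3872 had 167 RPM in WT and 82.0 in KO, sense 2863 had 159 and 75.0, and antisense 3618 had 228 and 64.4. Sense 2119, with 291 RPM in WT and 119 in KO, was the named position whose leading RNA carried mismatches to the copy, T18C and A26G.

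Of the 5′ ends with at least 100 reads, 138 of 139 had an interval entirely below 1 and 0 had one above it. Over the whole L1 copy the share was 99.1%, so the members were like the rest of the element in this count. The exception was sense 4035, with 54 reads in WT and 49 in KO and a ratio of 0.894 (0.595 to 1.34, exact binomial test p = 0.623). The lowest ratio was at antisense 2081, with 221 and 37 reads and a ratio of 0.165 (0.113 to 0.234), and the 5 lowest were all antisense. The 5 highest were all sense. These extremes were picked for their values and are a description.

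Among single sequences of 24 to 33 nt with at least 20 reads, 368 of 513 members, 71.7%, had a KO/WT ratio at or below 0.5, and 0 had a ratio at or above 2. The share over all such sequences of the libraries was 25.5%. It was 59.3% for the 297 sense members and 88.9% for the 216 antisense members, with median ratios of 0.448 and 0.281. In the upstream part it was 74.3% of 358 sequences.

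First-position U was frequent on both strands. It was found in 74.6% (74.2 to 74.9) of member reads in WT and 75.9% (75.4 to 76.5) in KO, against 26.04% and 25.9% in structural RNA fragments. Sense members had 72.5% in WT and 75.1% in KO, and antisense members 76.7% and 77.2%. The upstream part was unlike this, with 82.9% in WT on the sense strand and only 37.5% on the antisense strand. T makes up 21.4% of the sense strand and 39.1% of the antisense strand of the member region, and at positions 2 to 24 the U share of the RNAs stayed at or below 29.8% for sense and 49.2% for antisense reads in either library.

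A at position 10 was found in 49.9% (49.5 to 50.2) of member reads in WT and 49.0% (48.3 to 49.6) in KO, against 24.7% and 23.4% in structural RNA fragments. The strands must be read against their base composition, with A at 39.1% of the sense strand and 21.4% of the antisense strand. For antisense members the share was 56.6% in WT and 55.5% in KO, and the next highest A share among positions 1 to 24 was 32.2% and 32.5%. For sense members it was 43.4% and 44.8%, and position 5 had more A, 59.1% in WT and 61.4% in KO. With each distinct sequence counted once, A at position 10 of sense members was 48.3% in WT against 48.0% at the next highest of these positions. A at position 10 therefore stood out on the antisense strand. On the A-rich sense strand it did not stand out by reads, and hardly by distinct sequences.

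A at position 10 was more frequent among RNAs that did not begin with U than among those that did. Among sense reads, A at position 10 was in 68.1% of those without a first U and 34.0% of those with one in WT, and in 72.5% and 35.7% in KO. Among antisense reads the shares were 73.9% and 51.4% in WT and 73.7% and 50.1% in KO. RNAs with both marks were 39.4% of antisense reads and 24.6% of sense reads in WT. Ratios by these classes stayed close on the antisense strand, from 0.294 for RNAs with A at position 10 alone to 0.310 for RNAs with first-position U alone. On the sense strand they ran from 0.355 for RNAs with neither mark to 0.496 for RNAs with both. The sense class with both marks had 7764 reads in WT and 3913 in KO. Sense 4433, whose leading RNA has both marks, had 1049 and 779 reads and a ratio of 0.731. The ratio of the class was not recomputed without this position.

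The 10-nt overlap was present but was not the strongest overlap in reads. Pairs of sense and antisense 5′ ends at overlaps of 1 to 30 nt were weighted by the product of their reads, and 10 nt took 10.4% of the weight in WT and 11.8% in KO. The mean of the other overlaps was 3.09% and 3.04%. An overlap of 5 nt took 14.2% in WT and 19.9% in KO, and it rested on the pair of sense 4433 and antisense 4437, which held 11.2% and 16.5% of all weight. Without that pair, 10 nt took 11.7% and 14.2% and ranked first, ahead of 5.56% at 6 nt in WT and 5.86% at 2 nt in KO. With each distinct sequence counted once it also ranked first, at 7.85% in WT and 8.53% in KO, ahead of 4.87% and 5.49%. The upstream part gave 52.1% and 51.7%, of which 37.6 and 34.2 percentage points came from the pair of sense 1038 and antisense 1047. Without it, the upstream shares were 23.1% and 26.6%. With each occupied position counted once, 10 nt took 3.89% in WT and 4.68% in KO for the members, still first but only a little ahead of 3.43% and 3.64%, and an even spread would give 3.33%. The upstream part had 3.92% and 4.47% by this count. The 10-nt share of the members was thus smaller than that of the upstream part when weighted by reads, and near it when positions were counted. These differences were not tested.

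Per read, the 10-nt partner was more common. In WT, 69.8% of sense reads had an antisense 5′ end at an overlap of 10 nt, against a mean of 49.0% and a maximum of 61.7% for the other overlaps. In KO, the share was 75.2%, against a mean of 34.8% and a maximum of 49.0%. A position with 1 read counted as a partner. Sense 4742, with 1712 reads in KO, had 1 partner read in KO and 0 in WT. The higher sense share in KO than in WT depends on that read. For antisense reads the share was 82.1% against a mean of 45.2% in WT and 60.4% against 32.6% in KO. Antisense 4209 and 4210 had 5 and 3 partner reads in WT and 0 in KO. The lower antisense share in KO than in WT depends in part on these positions. In all, 1328 pairs of positions overlapped by 10 nt. Sense RNAs with a partner in either library had a higher ratio, 0.470 (0.461 to 0.480), than those without, 0.382 (0.362 to 0.402), with a quotient of 1.23 (1.16 to 1.30, adjusted p = 9.78e-13 by Fisher's exact test). Antisense RNAs with a partner were lower, at 0.296 (0.289 to 0.304) against 0.325 (0.308 to 0.344), with a quotient of 0.911 (0.857 to 0.969, adjusted p = 0.00500 by Fisher's exact test). The abundance of the positions moves with having a partner, and its part in these quotients was not tested. Sense 4742 is among the sense RNAs with a partner only through the 1 KO read given above. It held 3066 reads in WT and 1712 in KO, and the sense quotient was not recomputed without it. Likewise, antisense 4209 and 4210 are among the antisense RNAs with a partner only through the 5 and 3 WT reads given above. They held 2282 and 1915 reads in WT and 546 and 506 in KO. The antisense quotient was not recomputed without them, and whether its direction holds without them was not tested.

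The pairs shown above differed in balance. At sense 4814 there were 189 reads in WT and 83 in KO, a ratio of 0.433 (0.330 to 0.563), and at its partner antisense 4823 there were 547 and 177, a ratio of 0.319 (0.268 to 0.378). At sense 2988 there were 194 and 79 reads, and at antisense 2997 there were 227 and 82, with ratios of 0.401 (0.305 to 0.524) and 0.356 (0.273 to 0.460). The intervals of the partners overlapped in both pairs. Sense 4433 had 1049 and 779 reads, whereas its partner antisense 4442 had 76 and 48, with ratios of 0.731 and 0.622 (0.424 to 0.905). At the pair of sense 4639 and antisense 4648 there were 456 and 193 sense reads against 73 and 14 antisense reads, with ratios of 0.417 (0.350 to 0.494) and 0.189 (0.0984 to 0.338). At the pair of sense 5043 and antisense 5052 the antisense side held 630 and 199 reads and the sense side 39 and 15.

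Cleavage by PIWI proteins leaves shorter fragments, and RNAs of 19 and 16 nt have been described as such by-products. The example below is the most abundant 19-nt member with the 16-nt RNA that ends at the same base, the antisense 29-nt RNA whose 3′ end lies opposite its 5′ end, and the sense RNA that begins 1 nt downstream.
Sense 19 nt, 5999: accccggagctcttgactc
Sense 16 nt, 6002: ccggagctcttgactc
Antisense 29 nt, 6027: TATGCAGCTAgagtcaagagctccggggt
Sense 28 nt, 6018: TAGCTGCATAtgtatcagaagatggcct

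They lie after the ORF2 stop codon at chr10:99719172-99719190, chr10:99719172-99719187, chr10:99719162-99719190 and chr10:99719144-99719171. The 19-nt RNA had 130 reads in WT and 67 in KO, and the 16-nt RNA 81 and 47. Antisense 29-nt RNAs with that 3′ end numbered 31 and 7, and sense RNAs of 24 to 33 nt starting at 6018 numbered 16 and 3. Each short RNA thus had more reads than either of these sets, although RNAs of over 29 nt from 6018 run past the end of the copy and were not placed. The most abundant antisense 19-nt RNA, at 5243 inside ORF2, had 21 reads in WT and 19 in KO, and the most abundant antisense 16-nt RNA, at 5087, had 36 and 9.

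RNAs of 19 nt numbered 1577 reads in WT and 1092 in KO, which was 4.71 and 5.73 times the average count at the neighbouring lengths of 18 and 20 nt. The excess was larger on the sense strand, 7.25 and 8.49 times, than on the antisense strand, 2.80 and 3.67 times. In the upstream part it was 2.59 and 3.08 times. RNAs of 16 nt numbered 1217 and 688 reads, 3.29 and 3.42 times the 17-nt reads. At 16 nt, placements with mismatches are less specific, and exact placements alone gave 804 and 425 reads.

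The short RNAs had higher ratios than the piRNA-length RNAs. The ratio was 0.682 (0.631 to 0.737) for 19 nt and 0.557 (0.506 to 0.612) for 16 nt. Against the ratio at 24 to 33 nt, the quotient was 1.79 (1.66 to 1.94, adjusted p = 2.17e-45 by Fisher's exact test) for 19 nt and 1.46 (1.33 to 1.61, adjusted p = 3.79e-14 by Fisher's exact test) for 16 nt. RNAs of 18 and 20 nt had ratios of 0.608 (0.487 to 0.758) and 0.537 (0.458 to 0.629). RNAs of 17 nt, next to 16 nt, had 0.535 (0.448 to 0.637), and those of 21, 22 and 23 nt had 0.476, 0.473 and 0.461. All lengths from 16 to 23 nt thus lay above the ratio at 24 to 33 nt, not only 19 and 16 nt. By strand, 19-nt RNAs had 0.655 (0.594 to 0.722) for sense and 0.734 (0.643 to 0.837) for antisense, with overlapping intervals.

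Most 19-nt RNAs ended directly before a piRNA-length 5′ end. In WT, 86.1% (83.8 to 88.0) of the 1040 sense reads of 19 nt stopped at the base before the 5′ end of a piRNA-length sense RNA, against a mean of 46.7% and a maximum of 58.3% over 20 other distances. In KO, the share was 80.5% (77.4 to 83.3), against a mean of 35.0% and a maximum of 52.9%. For antisense 19-nt reads it was 71.1% in WT and 64.5% in KO, against maxima of 66.7% and 48.0%. Neighbouring lengths shared part of this arrangement in WT, with 70.2% of the 94 sense reads of 18 nt, 77.2% of the 193 sense reads of 20 nt and 72.4% of the 123 antisense reads of 18 nt. Their maxima at other distances were 63.8%, 61.1% and 68.3%. The 260 antisense reads of 20 nt had 51.9% in WT, below their maximum of 65.8% at other distances. In KO, the shares were in the same order 40.7%, 64.2%, 27.5% and 35.5%. Their maxima at other distances in KO were 48.1%, 47.7%, 58.75% and 48.6%, so only the sense reads of 20 nt lay above theirs. The 5′ end of sense 19-nt reads lay opposite the last base of antisense RNAs of 29 nt in 58.8% (55.8 to 61.8) of reads in WT and 42.1% (38.4 to 45.8) in KO, with maxima of 38.6% and 25.0% at other distances. For sense 16-nt reads and antisense 26-nt RNAs the shares were 67.4% in WT and 45.2% in KO, with maxima of 42.1% and 18.4% at other distances. For antisense 16-nt reads and sense 26-nt RNAs they were 40.4% and 19.03%, with maxima of 26.3% and 19.9%, so that in KO another distance was ahead. Each of these shares depends on how many positions hold a read, and fewer did so in KO.

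Direct head-to-tail spacing of RNAs on the same strand, in which a 5′ end follows a 3′ end, was not the leading distance. With each occupied position counted once, the share of 3′ ends followed directly by a 5′ end was 1.97% on the sense strand and 2.03% on the antisense strand in WT, against means of 2.001% and 1.999% over the other distances up to 50 nt. Weighted by reads, the sense share was 3.41% in WT, behind 5.66% at a distance of 18 nt, and the antisense share was 1.19%. The base of the copy after the 3′ end of exactly placed RNAs was T for 23.1% of sense and 39.6% of antisense reads in WT, and for 23.5% and 39.2% in KO, close to the T content of each strand.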

How the data were processed

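Small RNAs from WT and Hsp90-alpha KO testes (1 library each) were prepared with the TruSeq Small RNA kit and sequenced on MiSeq. After adaptor removal by the authors, each distinct sequence of 11 to 48 nt was deposited with its raw count, without normalization. The submitters' processing notes name mm9 as genome build. The deposited tables carry no mapping, and no genome was used here.

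Sequences were matched to GENCODE release M21 transcripts (GRCm38). Sense matches inside 2202 miRNA hairpins were taken as miRNA, and matches to rRNA and other structural RNAs as structural RNA. The 950419 other sequences of 16 to 36 nt were placed without gaps on the L1 copy with up to 2 mismatches, keeping the best placement. At these depths 3 reads correspond to 4.68e-05% of the WT library and 5.37e-05% of the KO library, or 1.19 and 1.17 RPM, reads per 1000000 miRNA reads.

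KO/WT ratios carry exact Clopper-Pearson intervals and exact two-sided binomial tests, shares carry Wilson intervals, and ratios of 2 classes were compared by Fisher's exact test (two-sided, Benjamini-Hochberg adjustment over 18 quotients) with a log-scale interval. No model across replicates could be fitted. Named were the 10 strongest 5′ ends per strand by summed normalized reads with their leading sequence, the 5 pairs at a 10-nt overlap with the highest product of reads, the most abundant 19-nt and 16-nt RNA of each strand, and the gene and reading frames of the copy. Some antisense positions among these are not reported individually here. The positions with extreme ratios, sense 1038 with antisense 1047, and sense 4433 with antisense 4437 were named after their values were seen. The members, lists and tests were chosen with earlier results of these data known.

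In simulated data 100.0% of sequences of 16 to 33 nt were placed correctly, and 94.9% of 1000 simulated ratios fell inside their 95% interval. The simulated sequences were all drawn from this copy with up to 2 changed bases. False placement of RNAs from other sequences was therefore not examined. Alternatives changed the normalizing total, mismatches, the weight of each sequence, the minimum number of reads, the strongest position and the region start. Some were added after seeing the data, namely structural RNA as reference, leaving out the named positions, and leaving out the stretch from exon 2. Placement used numba 0.67.0, intervals and tests scipy 1.17.1, and tables pandas 2.3.3 with numpy 2.4.6 under Python 3.11.15.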

Additional observations from a re-analysis of the deposited data

How the results depend on the processing

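No paired analysis was possible because each genotype has 1 library, and no library could be left out. Of 102 recomputed values, 56 stayed on their side of the threshold, within their interval or, for values with neither, near the main value. The 3 KO/WT ratios and the strand quotient did so in every alternative run, from 0.345 to 0.470 for both strands, 0.432 to 0.531 for sense, 0.253 to 0.419 for antisense and 0.586 to 0.805 for the quotient. The cause of the changes below was not tested.

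The quotient of members over the upstream part turned to 1.07 without mismatches and to 1.09 without the exon 2 stretch. It passed the threshold at 0.960 with at least 2 reads, 0.972 without the strongest 5′ end and 0.976 from the ORF2 start. The quotient of 28 to 32 over 24 to 27 nt lost significance at 0.960 without mismatches, 0.958 with distinct sequences and 0.983 with at least 2 reads, and turned to 1.13 over structural RNA.

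Shares moved as follows, WT before KO. A share counted as moved when it fell outside the interval of the main value. The interval of the alternative was not considered. The 10-nt overlap has no interval and counted as moved when its rounded value changed. The antisense share was 48.5% and 37.2% without mismatches, 50.2% and 44.8% with distinct sequences, 48.5% and 35.6% with at least 2 reads, and 51.5% and 41.8% without the strongest 5′ end. First U was in the same order 76.4% and 77.6%, 63.3% and 64.5%, 78.7% and 82.0%, and 73.2% and 74.1%. A at position 10 was 50.7%, 47.6% and 51.1% in WT for the first 3, and 52.3% and 52.6% without the strongest 5′ end. The 10-nt overlap was 9.76% and 9.89%, 7.85% and 8.53%, 11.5% and 14.4%, and without the strongest pair 11.7% and 14.2%. The 19-nt excess was 5.65 and 7.88, 3.16 and 4.16, and 7.58 and 9.53 for the first 3.

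Positions of at least 100 reads with an interval below 1 numbered 62 without mismatches, and sequences at or below 0.5 numbered 113 with at least 50 reads, since fewer then qualify. Depth limits what can be said of single sequences, as 22717 members were read once.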
